A study of Citrus reticulata with 36 samples.

Results

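The nucellus of "Huagan No.4" (HG), a cultivar of ponkan (Citrus reticulata), was compared between 28 and 32 days after pollination (DAP). The libraries were taken by their labels and not by any measured value: the 3 HG nucellus libraries at 32 DAP stood against the 3 at 28 DAP, which are 6 of the 36 libraries of the series. All gene identifiers entered, and 57344 of the 128861 in the table passed the filter on low counts and were tested. The labels place the series in the study of seed abortion. Libraries set beside these 6 were HG nucellus at 18 DAP and HG integument at 28 and 32 DAP. Nucellus of the cultivar "Egan No.1" (EG) at 28 and 32 DAP was also set beside them. The remaining groups, EG integument at 18, 28 and 32 DAP and EG nucellus and HG integument at 18 DAP, served tissue lists and whole-series comparisons. There were 3 libraries per group, and all 36 entered the fit. Every group was cell mass cut from ovules by laser capture microdissection, and its RNA was amplified as cDNA before sequencing. The labels name no treatment, no pollen parent and no tree or fruit for any library. The series describes the 3 libraries of a group as biological replicates without saying what was replicated. If libraries of a group share a tree, the p-values below are too small.

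The nucellus is maternal tissue that encloses the embryo sac, and in many seed plants it is broken down as the endosperm and embryo grow. In many citrus types some nucellus cells also form somatic embryos, which is why their seeds can hold several embryos. The integuments surround the nucellus and become the seed coat. The identifiers come from a table without gene names or annotation, and none was matched to a gene here. Pathway, cell death and embryo gene lists could therefore not be applied, and no identifier is given a role. For each comparison up to 2 identifiers in a direction are named as examples. In these bulk samples, fewer cells of a type and less RNA per cell cannot be told apart.

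The 6 libraries held 15972101, 20519248 and 18622169 counts at 28 DAP and 18758042, 17701292 and 12976584 counts at 32 DAP. Tissue identity was checked with lists drawn from EG libraries. These are not among the 6 compared libraries, though they enter the common estimate of the spread. The 160 identifiers at least 32-fold higher in EG nucellus than in EG integument (0.279% of those tested) made up 1.79%, 1.75% and 1.54% of the normalised expression at 28 DAP. At 32 DAP they made up 1.74%, 0.711% and 2.59%, and the HG integument libraries had at most 0.0606%. Replicate 2 at 32 DAP had the lowest share of the 18 nucellus libraries and the groups overlapped (means 1.69% ± 0.134 and 1.68% ± 0.942, SD, n = 3 each; exact permutation p = 0.9, two-sided). The 563 identifiers at least 32-fold higher in EG integument (0.982% of those tested) made up 0.0137% to 0.0187% in the 6 libraries. In the HG integument libraries, which did not choose the list, they made up 0.427% to 0.654%. All 6 libraries thus matched their labelled tissue on both lists, and the integument list overlapped between the stages (exact permutation p = 0.8, two-sided).

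The 32 DAP libraries resembled each other less than the 28 DAP libraries did. Spearman correlations over the tested identifiers were 0.946 to 0.973 within 28 DAP and 0.909 to 0.927 within 32 DAP. Across the stages they ranged from 0.877 to 0.960. Replicate 1 at 32 DAP was closer to the 3 libraries at 28 DAP (0.960, 0.953 and 0.956) than to replicates 2 and 3 of its own stage (0.912 and 0.927). Of all 36 libraries it was most like replicate 2 of EG nucellus at 18 DAP, at 0.974. Replicates 2 and 3 at 32 DAP were also most like EG nucellus libraries of 18 DAP, at 0.940 and 0.937. A library of the same group was the most alike for 14 of the 36 libraries, for 2 of 3 at 28 DAP and for 0 of 3 at 32 DAP, and the most alike library was of the same tissue in all 36. In a principal component analysis of the 6 libraries the first component held 54.3% of the variance. On it replicate 1 of each stage lay between the others, at -25.1 for 28 DAP and -12.7 for 32 DAP, with -78.4 and -63.0 on one side and 119 and 60.02 on the other. The median SD between libraries, over 28794 identifiers with a mean of at least 5 CPM (counts scaled to library size with TMM factors), was 0.30 log2 units at 28 DAP and 0.38 at 32 DAP. The second was the third highest of the 12 groups.

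**Figure D1:**
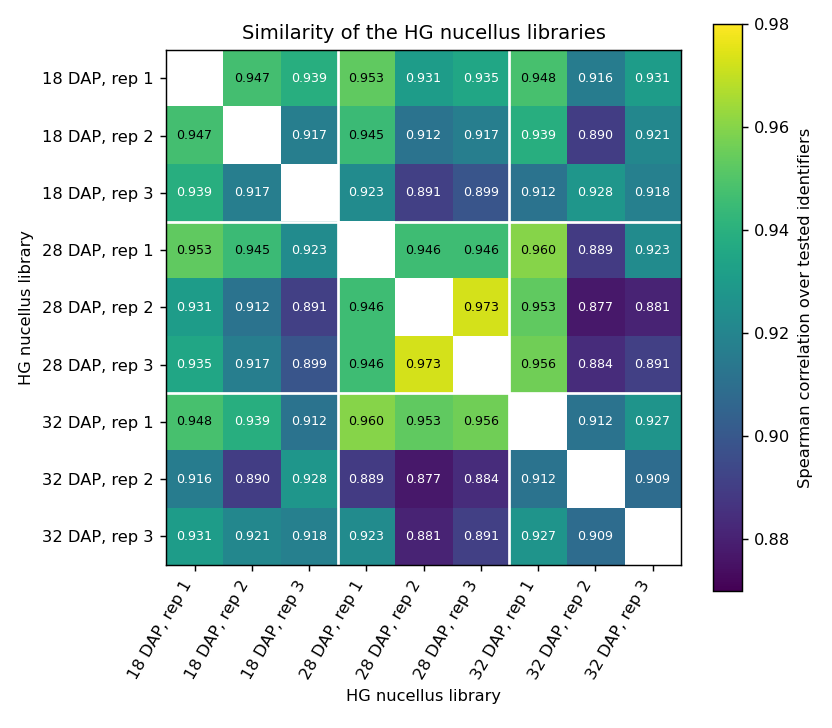
Spearman correlations between the 9 HG nucellus libraries over the 57344 tested identifiers, with libraries on both axes and colour giving the correlation. Replicate 1 at 32 DAP correlates at 0.953 to 0.960 with the 28 DAP libraries and at 0.912 and 0.927 with the other 32 DAP libraries.

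More identifiers were detected at 32 DAP. At least 1 count was found for 64118, 59221 and 59736 identifiers in the 28 DAP libraries and for 69127, 66852 and 65819 in the 32 DAP libraries. The groups did not overlap, although the total counts did and their mean was lower at 32 DAP. The exact permutation test gave p = 0.1, two-sided, the smallest that 3 against 3 libraries allows, and p = 0.5 after Benjamini-Hochberg adjustment over 5 library measures. Over the whole table, 51396 identifiers had a count in all 6 libraries, 10550 had counts only at 32 DAP and 2567 only at 28 DAP. Identifiers silent at 1 stage and well counted at the other were rare. A set of 4 had 0 counts at 28 DAP and at least 10 counts in each 32 DAP library, with 48 to 87 counts over the 3 libraries. All 4 had counts at 18 DAP. The reverse, 0 counts at 32 DAP and at least 10 in each 28 DAP library, held for 0 identifiers.

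No identifier passed the test for a change from 28 to 32 DAP, although the smallest adjusted p missed the threshold of 0.05 narrowly. EdgeR's quasi-likelihood test with Benjamini-Hochberg adjustment called 0 of 57344 (0%), with a lowest adjusted p of 0.0520. At an unadjusted p under 0.05 there were 8465 identifiers (14.8%), of which 5043 were higher (8.79%) and 3422 lower (5.97%) at 32 DAP. Other tools did make calls on the same libraries: DESeq2 called 1210 identifiers, limma voom with sample quality weights 2851, and limma on log2(FPKM + 0.1) 77. At an adjusted p under 0.10, a threshold added after the values were seen, edgeR had 216 (0.377%), 159 higher and 57 lower. The count rested on single libraries. It was 1050 without replicate 1 at 28 DAP and 598 without replicate 1 at 32 DAP. Leaving out replicate 1 of EG nucellus at 28 DAP, which is outside the comparison but enters the common estimate of the spread, gave 48. It stayed 0 without any 1 of the other 4 HG libraries. At an unadjusted p under 0.05 the count was 4744 without replicate 2 at 28 DAP and 5635 without replicate 3 at 32 DAP. The lowest adjusted p of edgeR was 0.256 with only the compared libraries in the fit. It was 0.201 with a replicate block over the stages, and both fits made 0 calls.

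The identifier with the smallest p was c100593_g1. Its level was 2.88, 2.00 and 2.27 CPM at 28 DAP and 6.95, 16.7 and 21.1 CPM at 32 DAP. Every 32 DAP library lay above every 28 DAP library, with replicate 1 the lowest of the later stage. The means were 2.38 ± 0.45 and 14.9 ± 7.22 CPM (SD, n = 3 each), a log2 fold change of 2.64 (SE 0.43, edgeR adjusted p = 0.0520). Over 17 alternatives its adjusted p ranged from 3.54e-06 to 0.547 and was under the threshold in 10. At 18 DAP it stood at 7.88 ± 3.70 CPM in HG nucellus, above the 28 DAP level. EG nucellus had 3.98 ± 0.24 CPM at 28 DAP and 2.97 ± 1.01 CPM at 32 DAP, and HG integument 6.204 ± 1.19 and 7.86 ± 3.79 CPM.

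The second, c115863_g1, had 6.75, 1.76 and 3.08 CPM at 28 DAP and 15.04, 24.0 and 32.4 CPM at 32 DAP. The groups did not overlap, and replicate 1 was again the 28 DAP library nearest to the later stage and the 32 DAP library nearest to the earlier one. The log2 fold change was 2.62 (SE 0.47, edgeR adjusted p = 0.0589), and over 17 alternatives the adjusted p ranged from 6.66e-05 to 0.555. In EG nucellus the level was 17.8 ± 5.43 CPM at 28 DAP and 18.3 ± 5.59 CPM at 32 DAP. HG nucellus at 18 DAP had 6.71 ± 2.20 CPM, which overlapped the 28 DAP values and also lay below EG. The HG level of 23.8 ± 8.66 CPM at 32 DAP overlapped the EG values. HG integument had 8.02 ± 4.11 and 18.0 ± 6.75 CPM at the 2 stages.

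Among identifiers lower at 32 DAP, c70882_g1 led with 24.9, 34.4 and 35.7 CPM at 28 DAP and 17.02, 17.1 and 13.01 CPM at 32 DAP. The log2 fold change was -1.01 (SE 0.19, edgeR adjusted p = 0.0589; 0.000135 to 0.555 over 17 alternatives). Its 32 DAP libraries were tight, while replicate 1 at 28 DAP lay below the other two. HG nucellus at 18 DAP had 23.2 ± 1.90 CPM, EG nucellus 22.0 ± 4.29 and 19.3 ± 2.60 CPM, and HG integument 23.5 ± 1.70 and 16 ± 1.06 CPM at 28 and 32 DAP.

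The more abundant c80683_g1 had 527, 448 and 429 CPM at 28 DAP and 222, 259 and 260 CPM at 32 DAP. The groups were separated by more than their own range (log2 fold change -0.92, SE 0.18, edgeR adjusted p = 0.0589; 0.000314 to 0.547 over 17 alternatives). In HG integument it had 329 ± 58.5 CPM at 28 DAP and 223 ± 33.4 CPM at 32 DAP, where the difference had an adjusted p of 0.124 by edgeR. EG nucellus had 286 ± 30.3 and 257 ± 43.9 CPM, and HG nucellus at 18 DAP 418 ± 57.4 CPM. All 4 named identifiers kept their direction in each of the 17 alternatives. None was called in HG nucellus, EG nucellus or HG integument, and in EG nucellus edgeR called 0 of all 57344. In HG integument all 4 went in the direction of HG nucellus. The unadjusted edgeR p there was 0.0033 for c80683_g1, 0.0065 for c70882_g1, 0.013 for c115863_g1 and 0.41 for c100593_g1.

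**Figure D2:**
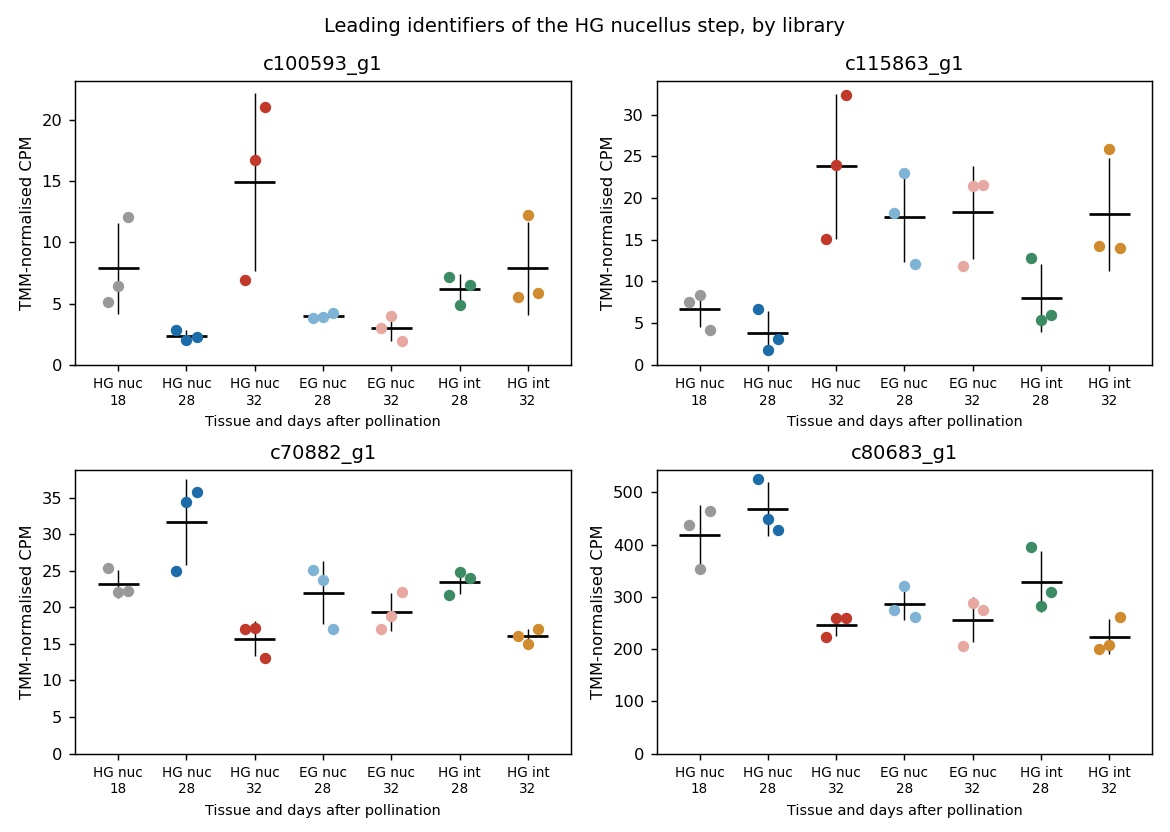
TMM-normalised CPM of the 4 named identifiers in each library, by tissue (nuc, nucellus; int, integument), cultivar and DAP; points are libraries, bars the mean and SD of 3. In HG nucellus c100593_g1 goes from 2.38 to 14.9 CPM on average and c80683_g1 from 468 to 247 CPM, with no overlap between 28 and 32 DAP.

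Higher and lower identifiers differed in size of change and in abundance. These sets were chosen by the p of this comparison, so the values describe them and test nothing. The 5043 higher at 32 DAP had a median log2 fold change of 1.86 and a median level of 0.954 CPM at 28 DAP and 3.38 CPM at 32 DAP. With the 227 that had 0 counts at 28 DAP set to a bound of 3 counts over the group, the median was 1.84. The 3422 lower had a median of -0.81, unchanged with the 35 at 0 counts set to that bound, and median levels of 24.2 and 13.7 CPM. With groups at 0 counts set to the bound, 4284 were at least 2-fold higher and 1060 at least 2-fold lower. At least 4-fold, the numbers were 2222 and 196, and at least 16-fold, 251 and 8. Among those whose higher group averaged 5 CPM or more, 2104 were higher and 3007 lower (41.2% higher). This split lay near that of all 29633 tested identifiers at that level, of which 40.2% were higher whatever their p. With an unadjusted p under 0.05 and a 4-fold change at that level, 461 were higher and 31 lower. Over all tested identifiers the median log2 fold change was 0.03.

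**Figure D3:**
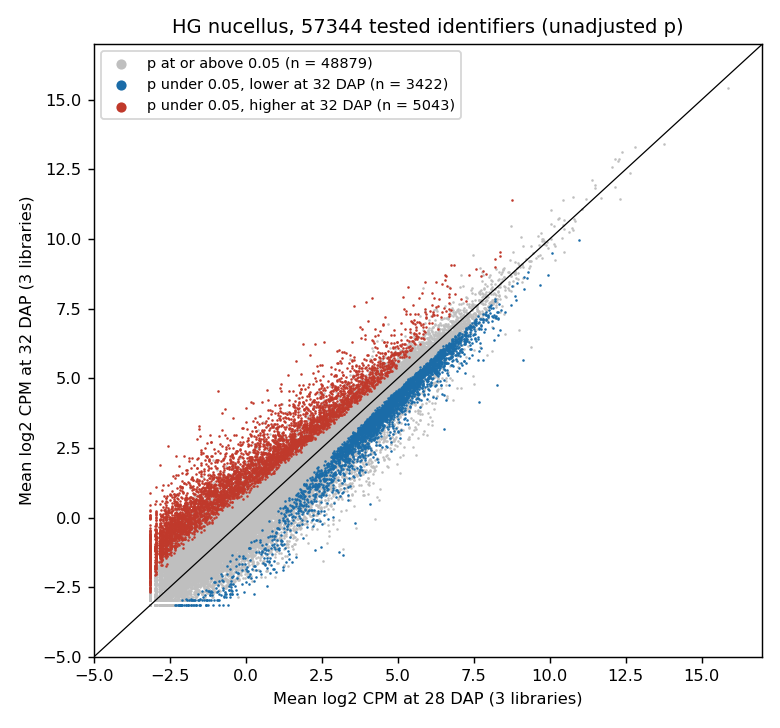
Mean log2 CPM of each tested identifier at 28 DAP (x) and 32 DAP (y) in HG nucellus, 3 libraries a side, coloured by an unadjusted p under 0.05; the line marks equal levels. The 5043 higher identifiers spread over low levels, at a median of 0.954 CPM at 28 DAP, and the 3422 lower ones sit at higher levels, at a median of 24.2 CPM.

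The same contrast appeared when identifiers were ranked by mean log2 CPM over all 36 libraries and divided into 4 classes of 14336. In class 1, the least abundant, with a median of 0.497 CPM, 13.2% of identifiers were higher and 1.16% lower at an unadjusted p under 0.05. In class 2 the shares were 10.2% and 2.16%, and in class 3 6.41% and 5.73%. In class 4, with a median of 25.05 CPM, 5.36% were higher and 14.8% lower. The median log2 fold change went from 0.69 in class 1 through 0.13 and -0.07 to -0.19 in class 4. Counting noise is larger for low identifiers, and the part of abundance or of library composition in these shares was not tested.

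Over all tested identifiers, separation of the stages was about as frequent in both directions. The lowest 32 DAP library exceeded the highest 28 DAP library for 6178 identifiers (10.8%), and the highest 32 DAP library lay under the lowest 28 DAP library for 5428 (9.47%). Where the higher group averaged 5 CPM or more, these were 2159 and 4280, so 33.5% of the separated identifiers were higher. Of all 29633 tested identifiers at that level, separated or not, 40.2% were higher at 32 DAP. Among the separated ones at that level with a 4-fold change as well, 356 were higher and 20 lower at 32 DAP.

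The shift was smaller in replicate 1 of 32 DAP than in the other two. For the 5043 higher identifiers the median log2 difference from the 28 DAP mean was 1.08, 1.70 and 1.75 in replicates 1, 2 and 3 at 32 DAP. Among the 28 DAP libraries it was 0.32, -0.22 and -0.09, with replicate 1 nearest to the later stage. For the 3422 lower identifiers the values were -0.53, -0.92 and -0.98 at 32 DAP and -0.25, 0.21 and 0.04 at 28 DAP. Replicate 1 was the highest of the 3 at 32 DAP for 6.52% of the higher identifiers, against 32.0% of all tested. Replicates 2 and 3 held the highest value for 44.1% and 49.4%.

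HG nucellus at 28 DAP lay at one end of the 12 groups for both sets. The 5043 higher identifiers summed to 3.59%, 2.25% and 2.58% of normalised expression in its libraries and to 4.62%, 9.55% and 8.47% at 32 DAP. The group mean of 2.80% ± 0.697 at 28 DAP was the lowest of the 12, and the 32 DAP mean of 7.55% ± 2.59 (SD, n = 3 each) was the second highest, after HG integument at 32 DAP at 7.67% ± 3.08. HG nucellus at 18 DAP had 5.44% ± 0.630. The 3422 lower identifiers summed to 11.8%, 17.1% and 15.3% at 28 DAP and 9.89%, 7.69% and 7.71% at 32 DAP. Here the 28 DAP mean of 14.7% ± 2.70 was the highest of the 12 and the 32 DAP mean of 8.43% ± 1.26 the lowest. The choice of both sets favours such extremes. The step from 18 to 28 DAP shares the 28 DAP libraries. In it the higher set had a median log2 fold change of -1.06 and the lower set of 0.56.

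**Figure D4:**
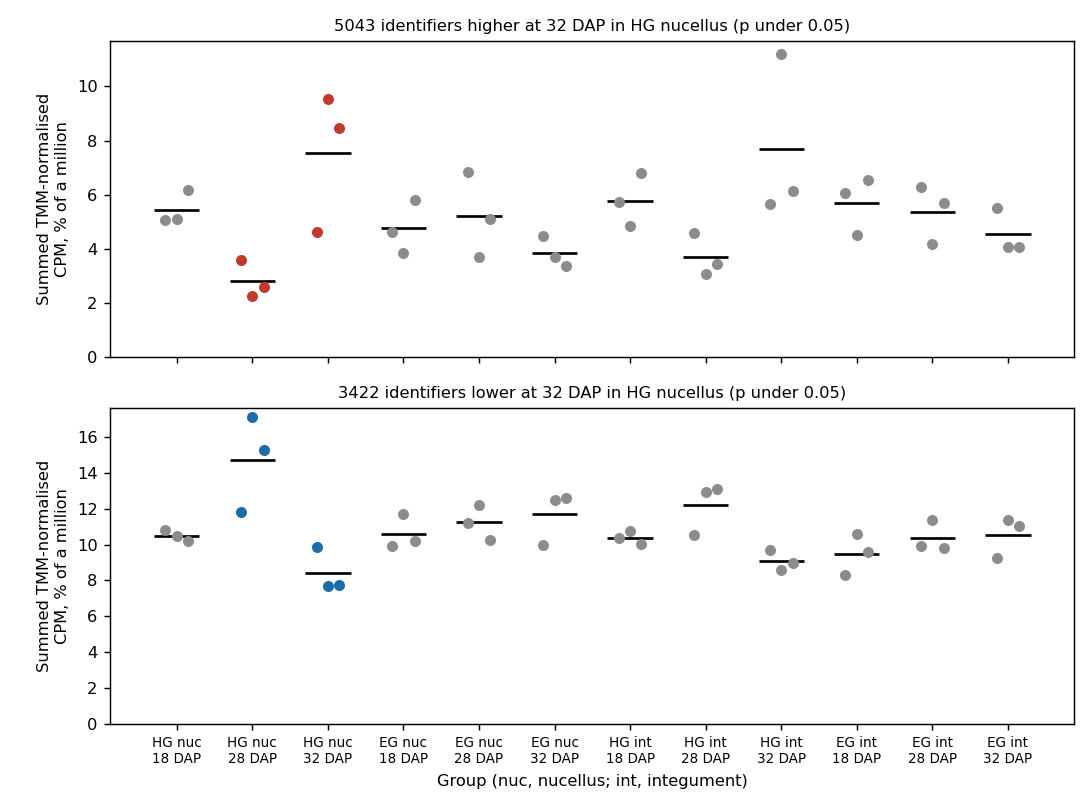
Summed TMM-normalised CPM, as a percentage of the library, of the identifiers higher (top) and lower (bottom) at 32 DAP in HG nucellus, in every library of the 12 groups; points are libraries, lines group means. The higher set has its lowest mean, 2.80%, in HG nucellus at 28 DAP, and the lower set its highest, 14.7%; these 6 coloured libraries chose the sets.

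The medians of the lists that mark nucellus and integument lay near that of all tested identifiers. Of the 160 nucellus-preferring identifiers at 32-fold, 0 were called (0% of all tested were), 14 were higher (8.75%) and 1 lower at an unadjusted p under 0.05, with a median log2 fold change of -0.07. Of the 563 integument-preferring identifiers, 36 were higher (6.39%) and 22 lower (3.91%). Their fitted median was 0.00. It was -0.19 with a stage at 0 counts set to its bound and identifiers at 0 counts in both stages left out. At 4-fold, 111 of 1097 nucellus-preferring identifiers (1.91% of those tested) were higher (10.1%) and 32 lower (2.92%), with a median of 0.09. Of 3327 integument-preferring identifiers (5.8%), 379 were higher (11.4%) and 152 lower (4.57%), with a median of 0.04. For all tested identifiers the shares were 8.79% and 5.97% and the median 0.03.

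The step in HG integument ran in the same direction for many identifiers. Its libraries are other libraries than those of the nucellus step, but same-numbered nucellus and integument libraries deviated from their group means together (Pearson correlations over 28794 identifiers of 0.698, 0.465 and 0.386 for replicates 1, 2 and 3 at 28 DAP and 0.594, 0.663 and 0.413 at 32 DAP). The tissues are therefore not independent views of the step. The tissue lists moved with the integument step. The 160 nucellus-preferring identifiers had a median log2 fold change of 1.39 in HG integument and the 563 integument-preferring ones of -0.57, against -0.02 for all tested. The median level of the integument list, relative to its mean in EG integument, was 83.4% to 88.1% at 28 DAP. At 32 DAP it was 82.4%, 39.99% and 65.1%, and replicate 2 was the lowest of the 18 integument libraries. Without that library the median log2 fold changes of the nucellus and integument lists were 1.18 and -0.36, against -0.04 for all tested. The part of these markers in the integument step was not tested. Of the 296 identifiers that rose in HG integument from 28 to 32 DAP (0.516% of those tested, edgeR adjusted p under 0.05), 121 were higher in nucellus at an unadjusted p under 0.05 (40.9%) and 3 lower. Their median log2 fold change in nucellus was 1.11, or 1.09 with 6 at 0 counts at 28 DAP set to the bound. They summed to 0.383%, 0.407% and 0.379% of normalised expression in the 28 DAP nucellus libraries and to 0.490%, 1.08% and 0.596% in those of 32 DAP. The groups did not overlap, and replicate 2 at 32 DAP was the highest. In HG integument at 32 DAP they summed to 0.672%, 2.15% and 0.582%, again highest in replicate 2. Of the 21 that fell in HG integument (0.0366%), 12 were lower in nucellus (57.1%) and 0 higher, with a median of -0.63. Without replicate 2 of HG integument at 32 DAP, an alternative added after the data were seen, edgeR called 2 identifiers higher and 0 lower in integument. That fit had fewer libraries, and whether leaving out another integument library would shorten the lists as much was not tested.

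Taken from the nucellus side, 84.3% of the 5043 higher identifiers had a positive fold change in HG integument, where 48.8% of all tested had one, and their median there was 0.83. At an unadjusted p under 0.05, 30.7% were higher in integument, against 8.89% of all tested. Of the 3422 lower identifiers 13.8% had a positive fold change, and the median was -0.39. There 21.7% were lower at an unadjusted p under 0.05, against 5.47% of all tested. Without replicate 2 of HG integument at 32 DAP, 80.1% of the higher and 13.2% of the lower identifiers had a positive fold change in integument, against 46.8% of all tested, and the medians were 0.67 and -0.34. Across all 57344 identifiers, which are not independent replicates, the fold changes of the 2 tissues had a Spearman correlation of 0.474, and of 0.413 without that library. The test of whether the HG step differed between nucellus and integument called 0 identifiers with edgeR (0%). An unadjusted p under 0.05 was reached by 2818 (4.91%), in a fit that did not pair the tissues. DESeq2 made 33 calls and voom 5. With same-numbered nucellus and integument libraries paired as a replicate block, an alternative added after the data were seen, edgeR called 6, all with a lower step in nucellus. In that paired fit 5167 identifiers had an unadjusted p under 0.05, so the count of 2818 changed with the pairing. Unpaired and without replicate 3 of HG integument at 32 DAP, edgeR called 2.

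In EG nucellus most of the higher identifiers had a fold change of the opposite sign. Of the 5043 higher identifiers, 35.7% had a positive fold change from 28 to 32 DAP in EG nucellus, against 50.1% of all tested, and the median was -0.23. Replicate 1 of EG nucellus at 28 DAP stood apart from its group, with correlations of 0.814 and 0.826 to the other libraries of the group. Without it the median was -0.12 and 40.5% were positive. The 3422 lower identifiers had a median of 0.07 in EG, and 0.02 without that library. Across identifiers the fold changes in the 2 cultivars had a Spearman correlation of -0.172, and of -0.109 without that library.

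**Figure D5:**
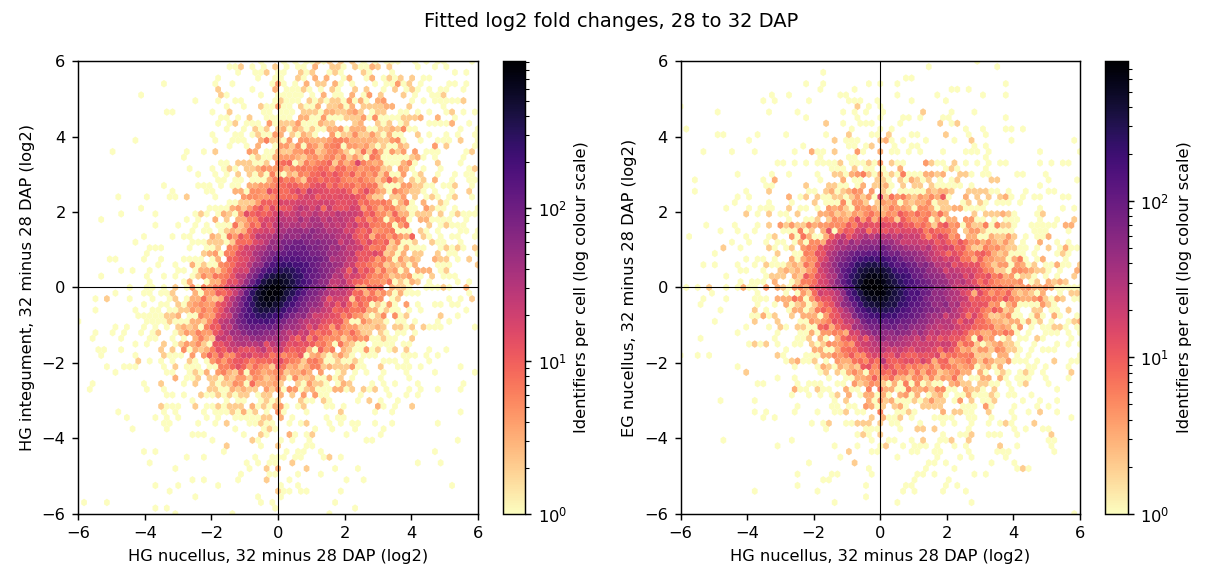
Fitted log2 fold changes from 28 to 32 DAP of 57344 identifiers, HG nucellus (x) against HG integument (left) and EG nucellus (right); colour counts identifiers per cell on a log scale, and 267 and 104 identifiers lie outside the axes. The left cloud runs along the diagonal (Spearman correlation 0.474), the right one does not (-0.172).

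The difference of the step between the cultivars was tested directly and called 3 identifiers (0.00523%), each higher at 32 DAP in HG relative to EG. For c120532_g1 the HG libraries had 0.940, 0.856 and 0.640 CPM at 28 DAP and 2.27, 11.97 and 8.24 CPM at 32 DAP. The EG libraries had 9.25, 1.52 and 1.16 CPM at 28 DAP and 0.667, 0.346 and 0.248 CPM at 32 DAP. All HG libraries were higher and all EG libraries lower at the later stage, and the log2 difference between the steps was 6.37 (SE 0.96, edgeR adjusted p = 0.0131; 3.82e-08 to 0.435 over 22 alternatives). For c88056_g1 the HG libraries had 1.66, 1.62 and 1.40 CPM at 28 DAP and 7.05, 38.0 and 23.2 CPM at 32 DAP. The EG libraries had 16.5, 2.94 and 5.03 CPM and then 2.80, 1.73 and 2.14 CPM, again with opposite directions in every library. The log2 difference was 5.72 (SE 0.97, edgeR adjusted p = 0.0377, and 2.35e-06 to 0.435 over 22 alternatives). HG nucellus at 18 DAP had 5.84 ± 3.86 CPM of c120532_g1 and 8.08 ± 2.54 CPM of c88056_g1 (SD, n = 3 each). For both, every HG library of 18 DAP lay above those of 28 DAP.

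Replicate 1 of EG nucellus at 28 DAP was the highest EG library for both. Without it the log2 differences were 4.84 (edgeR adjusted p = 0.121) and 4.71 (adjusted p = 0.317), and 0 identifiers were called. The count was also 0 without replicate 2 or 3 of HG at 28 DAP, replicate 2 of HG at 32 DAP or replicate 2 of EG at 32 DAP, and 1 without replicate 3 of HG or replicate 1 or 3 of EG at 32 DAP. It was 409 without replicate 1 of HG at 28 DAP, 216 without replicate 1 of HG at 32 DAP, and 884 and 106 without replicates 2 and 3 of EG at 28 DAP. At an unadjusted p under 0.05 the test had 8016 identifiers (14%). DESeq2 called 928 and voom 1263.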

How the data were processed

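The authors deposited whole-number read counts per gene identifier and FPKM values rounded to 2 decimals. The submitters' processing notes list RSEM, Bowtie2, cutadapt and DESeq. Their versions and roles, the assembly and any rounding of RSEM estimates: not given in the sources used here. The columns number the stages 1 to 3, read here as 18, 28 and 32 DAP, which no label states. If that reading is wrong, every stage named changes.

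Counts were tested with edgeR 4.0.16 (R 4.3.3): filterByExpr over 12 groups (minimum count 10, minimum total 15), TMM normalisation, 1 mean per group over all 36 libraries with 24 residual degrees of freedom, robust quasi-likelihood F tests and Benjamini-Hochberg adjustment over 57344 identifiers at 0.05. Standard errors follow from the fold change and F. The tested identifiers hold 99.86% of counts. Log2 CPM used a prior count of 2. Total counts were 12687779 to 20947644 per library. Counting intervals are not given, since amplified reads are not independent molecules. No pair of replicates in either group was identical, and chi-square per degree of freedom was at least 45.0.

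Named identifiers are the 2 of smallest p per direction (none passed the threshold) with non-overlapping stages and at least 5 CPM in the higher group. For the cultivar difference they are the 2 largest called under the same conditions. Members and lists were chosen with earlier results of these data known. Same-numbered HG libraries of 28 and 32 DAP nucellus did not deviate together (correlations -0.236, 0.00859 and -0.196), so the stages were not paired. Same-numbered nucellus and integument libraries did, at 0.386 to 0.698, a pairing read from the data since no label states it. Alternatives were DESeq2 1.42.0, limma 3.58.1 (voom, and log2 FPKM with pseudocounts of 0.1 and 1), other filters and scaling, a replicate block and single libraries left out.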

Additional observations from a re-analysis of the deposited data

Results flagged for a closer look

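The step from 28 to 32 DAP differed between the cultivars for 3 identifiers by edgeR's test of the difference itself. The log2 difference, HG minus EG, was 6.37 for c120532_g1 and 5.72 for c88056_g1, with HG libraries higher and EG libraries lower at 32 DAP throughout. The third, left unnamed, had a fitted difference of 11.07 (edgeR adjusted p = 0.0242). In HG nucellus it had 0.111, 0 and 0 CPM at 28 DAP, so its fitted value depends on how near-zero counts are treated. Its HG levels at 32 DAP were 1.09, 5.69 and 6.93 CPM. In EG nucellus it had 11.7, 0.272 and 0.497 CPM at 28 DAP, the first in the library that stood apart from its group, and 0, 0.0989 and 0.497 CPM at 32 DAP. Whether that library accounts for the calls was answered only as far as leaving it out gave 0 calls, in a fit with fewer libraries.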

How the results depend on the processing

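For the HG nucellus step, against 0 calls, edgeR gave 1 with RLE size factors, 7 with no filter, 1 when a mean level of 1 CPM or more was required and 216 at an adjusted p under 0.10. DESeq2 gave 1210, voom 2851, and limma on log2 FPKM 77 with a pseudocount of 0.1 and 136 with 1. Leaving out single libraries gave 0 to 1050. The count at an unadjusted p under 0.05 was 12998 with voom and 4744 to 11213 with single libraries left out. The cultivar difference had 928 calls with DESeq2, 1263 with voom, 1 with no filter, 0 with the compared libraries alone and 0 to 884 with single libraries left out. The tissue difference had 33 with DESeq2, 5 with voom, 1 with limma on log2(FPKM + 1), 1 with the compared libraries alone and 0 to 2 with single libraries left out. With the replicate block over the stages, the step and the cultivar difference had 0 calls, and with the replicate block pairing the tissues the tissue difference had 6. The cause of these changes was not tested. All 7 named or described identifiers kept their direction wherever they could be fitted.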

Other observations

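Length, implied by the ratio of counts to FPKM, was available for 54103 identifiers (94.3%). Divided into 4 classes by length, the shortest class, with a median of 1008 bases, had 10.3% higher and 2.78% lower at 32 DAP in HG nucellus at an unadjusted p under 0.05. The longest class, with a median of 3215 bases, had 8.36% higher and 9.72% lower. A set of 24 identifiers that vary together over the 36 libraries took 1.4997%, 4.24% and 14.7% of the counts at 28 DAP and 10.5%, 14.2% and 2.20% at 32 DAP. Its share overlapped between the stages, and without the set in the fit the step again had 0 calls.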
